A study of Mus musculus with 12 samples.

Results

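The transcripts of the Myc, Max and Mxd network were followed in basophils raised from mouse bone marrow. The network was taken by symbol as 9 genes (Myc, Mycn, Mycl, Max, Mxd1, Mxd3, Mxd4, Mxi1 and Mnt) among the 31301 symbols of a gene count table, and 7 of the 9 passed the filter on low counts, since Mycn and Mycl were too low to test. Marrow of wild-type C57BL/6J mice was kept for 7 days with 0.3 ng/mL IL-3 or with 1 µg/mL TSLP, a dose taken from the treatment protocol because another label gives it in a different unit. Bone marrow-derived basophils (BMBAs) were then sorted by surface protein into immature cells (FcεRIαhi CD49blo, the pre-basophils of the study) and mature cells (FcεRIαlo CD49bhi). Each cytokine thus gave an immature and a mature group of 3 libraries, 4 groups in all and all of the same strain, genotype and culture time. All cells were grown in vitro, so no basophil taken straight from a mouse is among them, and the libraries of a group are described in the study as separate cultures, with no word on whether these came from separate mice. The p values therefore measure the spread between these cultures.

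Myc, Mycn and Mycl are transcription factors that bind DNA as heterodimers with Max, mainly at the E-box CACGTG, and raise genes of ribosome production, nucleotide synthesis and cell division. Mxd proteins and Mnt compete for Max and, on the same E-boxes, bring in Sin3 corepressors with histone deacetylases. In blood cells Mxd1 and Mxd4 are known for their rise as cells leave the cell cycle, whereas Mxd3 is known for its expression in cells that are copying their DNA.

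Library totals ran from 1720065 to 3685285 counts, and 14494 to 16256 genes had at least 1 count. Ribosomal Rn45s took 7.43% to 12.5% of the counts of immature and 10.1% to 12.3% of mature libraries with IL-3, and 17.6% to 20.2% (immature) and 8.68% to 17.4% (mature) with TSLP. All 9 basophil markers (Mcpt8, Prss34, Cd200r3, Fcer1a, Ms4a2, Il3ra, Gata2, Itga2 and Hdc) had counts in every group. Their summed level was 38090 to 41690 CPM (counts scaled to a common library size) in immature and 10420 to 12660 CPM in mature libraries with IL-3, and 27340 to 30360 CPM (immature) and 8544 to 11650 CPM (mature) with TSLP. The markers in this sum did not all fall with maturation. With IL-3, Prss34 went from 35265, 74307 and 62239 counts in immature to 2576, 2091 and 1517 in mature libraries. Mcpt8 went from 33855, 54517 and 49480 to 16213, 12864 and 10001 counts. The other way, Itga2, the gene of CD49b, went from 64, 99 and 68 to 538, 658 and 686 counts. Hdc likewise went from 678, 1538 and 1392 to 2599, 2294 and 2208. TSLP mature 1 stood apart from its replicates. Its 6 neutrophil markers summed to 686 CPM against 33.6 and 21.1 in the other two, and its 8 B lineage markers to 174 CPM against 20.1 and 21.8. Neutrophil markers summed to 260 to 380 CPM in IL-3 mature libraries and to at most 78.8 CPM in those of either immature group. The mast cell list stayed at or below 8.86 CPM, with Mcpt1 at 0 in all 4 groups, and the T and NK cell list at or below 8.32 CPM. Macrophage markers summed to 11.5 to 34.8, 93.3 to 158, 60.2 to 70.2 and 239 to 313 CPM (immature and mature with IL-3, then immature and mature with TSLP), and progenitor markers to 2547 to 2839, 131 to 193, 1312 to 1330 and 68.1 to 172 CPM in the same order. Eosinophil markers summed to 27.3 to 36.2, 62.0 to 86.5, 15.96 to 32.91 and 60.2 to 79.2 CPM in that order, with Epx at 0 in IL-3 mature and TSLP immature cells. These 3 lists therefore moved with maturation beside the members described below, as did the basophil list and, with IL-3, the neutrophil list. With IL-3 the B lineage list also moved, at 5.97 to 7.25 CPM in immature and 2.13 to 2.90 CPM in mature libraries. With TSLP the erythroid and megakaryocyte list moved, at 705.5 to 835.4 CPM in immature and 903 to 1068 CPM in mature libraries. Genes within a list did not all move alike. With IL-3, Prg2 of the eosinophil list went from 55, 77 and 67 counts in immature to 10, 7 and 8 in mature libraries. Ccr3 of that list went from 9, 6 and 22 to 169, 113 and 116. In the macrophage list Adgre1 went from 11, 11 and 11 to 317, 246 and 175 counts, and C1qa from 17, 7 and 3 to 10, 5 and 1. The part of these lists in those results was not tested. In bulk libraries, fewer cells of a type and less RNA per cell cannot be told apart.

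In IL-3 cultures all 7 members tested differed between immature and mature cells. Myc and Mxd3 were higher in immature cells, by 2.19-fold and 24.4-fold, and Max, Mxd1, Mxd4, Mxi1 and Mnt were higher in mature cells, by 1.71-fold to 2.76-fold. The test was the quasi-likelihood F test of edgeR with Benjamini-Hochberg adjustment over 10861 genes, and a gene is called where its adjusted p is under 0.05. That comparison called 46.2% of all genes, 22.1% as higher and 24.1% as lower in immature cells, and the libraries of the groups failed to overlap for 57.7% of genes and for 7 of the 7 members. In TSLP cultures 5 of 7 members were called, against 25.1% of all genes. Mxd3 was higher in immature cells by 12.5-fold, Max, Mxd1, Mxd4 and Mxi1 were higher in mature cells by 1.5-fold to 1.82-fold, and Myc and Mnt did not pass. The same 5 members were those without overlap between TSLP immature and TSLP mature libraries, as were 38.3% of all genes. The number called fell to 2 without TSLP immature 3. It was 3 without IL-3 immature 3, IL-3 mature 2, IL-3 mature 3, TSLP immature 1, TSLP mature 2 or TSLP mature 3, each left out alone. Between cytokines, 2 of 7 members were called in mature cells, Myc and Max, against 24.3% of all genes, and 1 of 7 in immature cells, Myc, against 13.3% (7.38% higher and 5.9% lower with TSLP). The libraries of the groups did not overlap for 4 members in mature and 3 members in immature cells, with 38.6% and 38.1% of all genes.

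**Figure D1:**
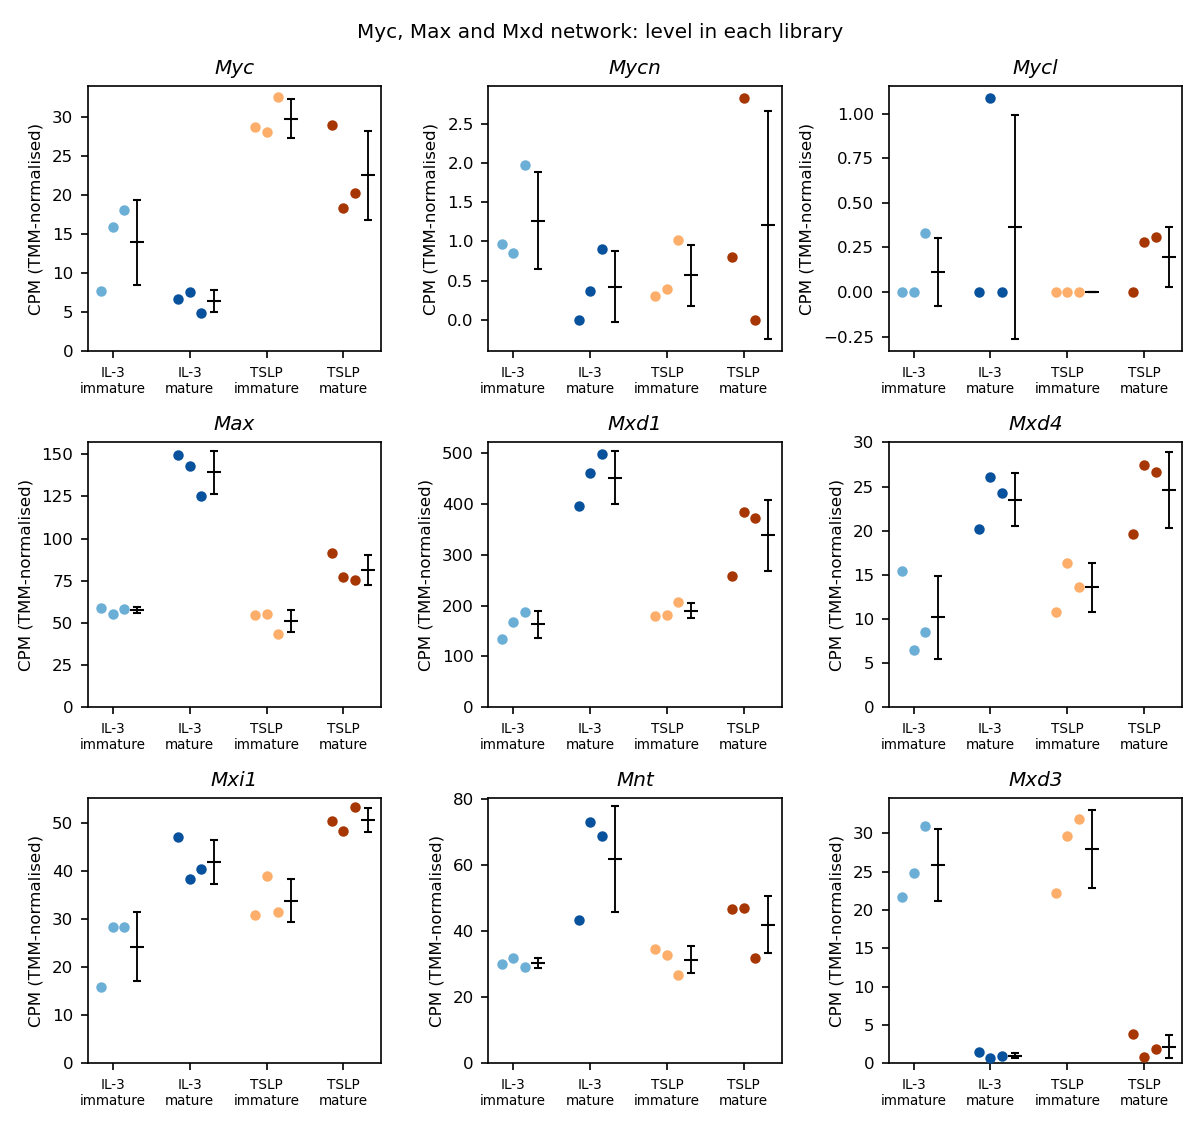
Level of each of the 9 members in CPM (y axes, each with its own scale) in the 12 libraries; points are libraries, and the mark beside each group gives the mean ± SD of 3. Max and Mxd1 have their highest libraries in IL-3 mature cells, at 125 to 150 and 395 to 498 CPM, Myc has its 3 lowest there, and Mxd3 stays below 4 CPM in every mature library.

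Myc, on chromosome 15 (15:61985391-61990374, plus strand, GRCm38), is the activator of the network. Myc stood at 7.72, 15.9 and 18.1 CPM in the immature and 6.74, 7.61 and 4.94 CPM in the mature libraries with IL-3, and at 28.8, 28.0 and 32.6 CPM (immature) and 29.0, 18.4 and 20.2 CPM (mature) with TSLP. The 6 TSLP libraries were all above the 6 IL-3 libraries, and the 3 IL-3 mature libraries were the lowest of all. The B lineage list was likewise higher with TSLP at both stages without overlap, at 34.6 to 41.7 against 5.97 to 7.25 CPM in immature and 20.1 to 174 against 2.13 to 2.90 CPM in mature cells. In that list Igll1 was at 0 in both IL-3 groups and Vpreb1 in TSLP immature cells. The macrophage list was also higher with TSLP without overlap, at 60.2 to 70.2 against 11.5 to 34.8 CPM (immature) and 239 to 313 against 93.3 to 158 CPM (mature). In immature cells its genes did not all go this way. Adgre1 had 153, 126 and 173 counts with TSLP against 11, 11 and 11 with IL-3. C1qa had 0, 2 and 0 counts with TSLP against 17, 7 and 3, and C1qc had 3, 0 and 1 against 8, 6 and 4. Erythroid and megakaryocyte markers were higher with TSLP in mature cells, at 903 to 1068 against 594 to 720.5 CPM, and overlapped in immature cells. The 15 cell cycle genes described below were likewise all higher with TSLP in mature cells, where 13 were called, beside 12.4% of all genes called higher. In immature cells 0 of them were called higher and 3 lower, beside 7.38% and 5.9% of all genes. The part of these lists in the Myc difference was not tested. In mature cells Myc was 3.46-fold higher with TSLP than with IL-3, with group means of 22.5 ± 5.68 and 6.43 ± 1.37 CPM (SD, n = 3 each). The log2 fold change was 1.79 ± 0.301 (SE), with an adjusted p of 0.00103 by edgeR, and it stayed called whichever library was left out, at 1.48 to 1.88. In immature cells Myc was 2.08-fold higher with TSLP than with IL-3, at 29.8 ± 2.44 against 13.9 ± 5.48 CPM (log2 fold change 1.06 ± 0.267, adjusted p = 0.0168 by edgeR). That call was lost without IL-3 immature 1 (0.79, adjusted p = 0.0674), IL-3 immature 2 (1.12, 0.0559), TSLP immature 1 (1.03, 0.0551) or TSLP immature 3 (0.98, 0.0814).

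The maturation difference of Myc passed the test in IL-3 cultures (log2 fold change 1.13 ± 0.316, adjusted p = 0.00778 by edgeR). IL-3 immature 1 held 16 Myc counts, whose 95% Poisson interval of 4.42 to 12.5 CPM covers all 3 IL-3 mature values. In TSLP cultures the difference was 0.40 ± 0.253 on the log2 scale, with a 95% interval of -0.10 to 0.89, an adjusted p of 0.273 by edgeR and overlapping libraries. TSLP mature 1, the library with the high neutrophil and B lineage lists, had the highest Myc of its group. Without it the difference was 0.72 with an adjusted p of 0.036, 1.81 times the value with all libraries. The IL-3 and TSLP differences were not shown to differ from each other (interaction -0.73 ± 0.405, adjusted p = 0.36 by edgeR).

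Mycn and Mycl, the Myc paralogues of the developing nervous system and of other tissues, were near the limit of detection. Mycn had 2, 3 and 6 counts in the immature and 0, 1 and 2 in the mature libraries with IL-3, and 1, 1 and 3 (immature) and 3, 10 and 0 (mature) with TSLP. Mycl had 6 counts over the 12 libraries, 3 of them in IL-3 mature 2 and 0 in TSLP immature cells, where 3 counts over the group would have been 0.339 CPM. At this depth no difference in either gene between groups was detectable. The immature to mature ratio of Mycn with IL-3, 3.32, had a counting interval of 0.877 to 18.5. Intervals and floors cover counting error only, because no molecular identifiers are stated and amplified reads need not be separate molecules.

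Max, at 12:76937269-76962201 on the minus strand, is the shared partner without which neither Myc nor the Mxd proteins bind DNA. Max stood at 58.9, 55.5 and 58.0 CPM in the immature and 149.6, 142.9 and 125.2 CPM in the mature libraries with IL-3, and at 54.8, 55.3 and 43.4 CPM (immature) and 91.3, 77.1 and 75.4 CPM (mature) with TSLP. Mature libraries lay above immature ones under both cytokines, and the IL-3 mature libraries lay above all TSLP mature ones. From the immature to the mature group the mean went from 57.5 ± 1.78 to 139 ± 12.6 CPM with IL-3, a 2.43-fold difference (log2 -1.28 ± 0.165 as immature minus mature, adjusted p = 1.1e-05 by edgeR). With TSLP it went from 51.2 ± 6.71 to 81.3 ± 8.71 CPM, a 1.59-fold difference (-0.67 ± 0.165, adjusted p = 0.00718), which was not called without TSLP immature 3 (-0.47, 0.0844). Max was the member that, beside Myc, separated the cytokines in mature cells, 1.71-fold lower with TSLP than with IL-3 (-0.78 ± 0.162, adjusted p = 0.00355 by edgeR). In immature cells the difference was -0.17 with an adjusted p of 0.556. Myc was thus higher and Max lower in TSLP mature than in IL-3 mature cells.

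Promoter sequences are shown for the 3 members whose window holds an E-box, Max, Mnt and Mxd4, and for the repressors Mxd1 and Mxd3, which moved most with maturation in opposite directions in IL-3 cultures. Sequences are from RefSeq, build GRCm38.p6, and run 5′ to 3′ on the strand of the gene from 250 bases before to 50 bases after the start site, with the E-box in capitals. Windows are chr12:76962199-76962498 (minus) for Max, chr11:74830674-74830973 (plus) for Mnt, chr5:34187661-34187960 (minus) for Mxd4, chr6:86669110-86669409 (minus) for Mxd1 and chr13:55329682-55329981 (minus) for Mxd3.
Max: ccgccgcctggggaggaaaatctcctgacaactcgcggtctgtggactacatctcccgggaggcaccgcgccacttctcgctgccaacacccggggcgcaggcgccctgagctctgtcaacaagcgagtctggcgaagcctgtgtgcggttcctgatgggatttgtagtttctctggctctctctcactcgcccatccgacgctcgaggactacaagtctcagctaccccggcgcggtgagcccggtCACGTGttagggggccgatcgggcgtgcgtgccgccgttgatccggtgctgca
Mnt: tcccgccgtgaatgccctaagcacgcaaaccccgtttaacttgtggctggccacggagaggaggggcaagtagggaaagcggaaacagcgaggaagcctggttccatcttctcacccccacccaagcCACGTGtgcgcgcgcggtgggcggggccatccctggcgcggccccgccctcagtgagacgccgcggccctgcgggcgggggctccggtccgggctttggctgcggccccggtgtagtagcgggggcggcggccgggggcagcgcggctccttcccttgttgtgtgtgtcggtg
Mxd4: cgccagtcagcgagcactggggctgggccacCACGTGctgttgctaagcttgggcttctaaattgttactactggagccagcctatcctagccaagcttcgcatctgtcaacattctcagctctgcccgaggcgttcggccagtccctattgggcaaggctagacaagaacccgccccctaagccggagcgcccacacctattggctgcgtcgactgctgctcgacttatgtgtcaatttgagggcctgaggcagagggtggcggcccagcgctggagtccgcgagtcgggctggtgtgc
Mxd1: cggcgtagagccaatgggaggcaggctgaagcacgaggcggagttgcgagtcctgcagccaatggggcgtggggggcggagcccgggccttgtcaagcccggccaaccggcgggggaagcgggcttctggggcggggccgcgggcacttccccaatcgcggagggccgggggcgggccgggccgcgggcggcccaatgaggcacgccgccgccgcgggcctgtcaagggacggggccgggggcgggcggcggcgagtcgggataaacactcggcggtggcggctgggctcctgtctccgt
Mxd3: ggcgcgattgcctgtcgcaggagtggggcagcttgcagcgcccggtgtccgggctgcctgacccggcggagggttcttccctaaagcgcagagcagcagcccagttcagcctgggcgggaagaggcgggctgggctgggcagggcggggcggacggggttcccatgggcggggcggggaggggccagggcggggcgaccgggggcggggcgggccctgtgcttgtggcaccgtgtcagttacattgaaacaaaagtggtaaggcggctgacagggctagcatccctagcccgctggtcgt

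Of the 9 members, 8 had an entry in the promoter table, with 10 windows in all, 3 of them for Mxi1. Myc had no entry. The letters CACGTG, which read the same on both strands, began 3 bases before the start site of Max, 123 bases before that of Mnt and 219 bases before that of Mxd4, and were in none of the other windows. The 3 genes with the match were among the 5 members that rose with maturation in IL-3 cultures, and Mxd1 and Mxi1 rose without a match. Of the tested members with an entry only Mxd3 did not rise. The matches could thus hardly fall elsewhere, and no link to maturation can be read from them. Of 32817 promoters of the same length, 7.15% held CACGTG. An E2F motif (TTTGGCGC, TTTCGCGC or TTTCCCGC on either strand, in 1.84% of promoters) was found in the Mycn window only, at 3 positions that overlap in part. A STAT motif (TTCNNNGAA, in 8.29% of promoters) was in none of the 10. These matches describe the letters of the windows and no binding was measured.

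Mxd1, at 6:86647042-86669161 on the minus strand, encodes a Max-binding repressor that accompanies terminal differentiation of myeloid cells. Mxd1 stood at 135, 167 and 188 CPM in the immature and 395, 461 and 498 CPM in the mature libraries with IL-3, and at 180.0, 182 and 207 CPM (immature) and 258, 384 and 372 CPM (mature) with TSLP. Every mature library was above every immature one, and every IL-3 mature library above the TSLP mature ones. The mature group was higher by 2.76-fold with IL-3 (163 ± 26.6 against 451 ± 51.8 CPM; immature minus mature -1.46 ± 0.197, adjusted p = 1.64e-05 by edgeR) and by 1.78-fold with TSLP (190 ± 15.2 against 338.0 ± 69.3 CPM; -0.83 ± 0.194, adjusted p = 0.00505). Both calls held under every alternative tried. With TSLP against IL-3 in mature cells the log2 difference of -0.42 ± 0.192 did not pass (adjusted p = 0.125 by edgeR), although the libraries did not overlap.

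Mxd4, at 5:34173883-34187720 on the minus strand, is a low-level repressor of the same family. It stood at 15.4, 6.54 and 8.57 CPM in the immature and 20.2, 26.1 and 24.2 CPM in the mature libraries with IL-3, and at 10.8, 16.4 and 13.6 CPM (immature) and 19.6, 27.4 and 26.7 CPM (mature) with TSLP. All mature libraries lay above all immature ones. The IL-3 difference was 2.4-fold (immature minus mature -1.26 ± 0.287, adjusted p = 0.0019 by edgeR). The TSLP difference was 1.82-fold (-0.86 ± 0.268, adjusted p = 0.0263) and its call was lost in 7 of the 12 fits that left out a library, with adjusted p up to 0.167 without TSLP immature 1. The other 6 were those without IL-3 immature 3 (0.0505), IL-3 mature 2 (0.0521), IL-3 mature 3 (0.0514), TSLP immature 3 (0.0894), TSLP mature 2 (0.108) or TSLP mature 3 (0.0914).

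Mxi1, at 19:53310518-53375810 on the plus strand, encodes the Max-binding repressor also known as Mxd2. Mxi1 stood at 15.9, 28.4 and 28.4 CPM in the immature and 47.2, 38.4 and 40.4 CPM in the mature libraries with IL-3, and at 30.8, 38.9 and 31.6 CPM (immature) and 50.5, 48.3 and 53.3 CPM (mature) with TSLP. Mature libraries were above immature ones within each cytokine, and TSLP libraries above IL-3 libraries within each stage. The IL-3 maturation difference was 1.71-fold (immature minus mature -0.77 ± 0.212, adjusted p = 0.00703 by edgeR). With TSLP it was 1.5-fold (-0.59 ± 0.203) at an adjusted p of 0.0433, and this call was lost in 18 of 21 alternatives, with adjusted p up to 0.219. Among the 12 fits that left out 1 library, it was kept only without IL-3 immature 1 and without IL-3 mature 1. The cytokine differences of 0.27 in mature and 0.45 ± 0.212 in immature cells did not pass (adjusted p = 0.355 and 0.173 by edgeR).

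Mnt, at 11:74830920-74845725 on the plus strand, is the broadly expressed antagonist of Myc. Mnt stood at 29.9, 31.9 and 29.0 CPM in the immature and 43.3, 72.9 and 68.6 CPM in the mature libraries with IL-3, and at 34.4, 32.7 and 26.8 CPM (immature) and 46.7, 46.9 and 31.9 CPM (mature) with TSLP. The IL-3 mature libraries were above all immature libraries of either cytokine, whereas TSLP mature 3 fell within the range of the TSLP immature libraries. The IL-3 difference was 2.03-fold (immature minus mature -1.02 ± 0.221, adjusted p = 0.00128 by edgeR), and the TSLP difference of -0.42 ± 0.219 did not pass (adjusted p = 0.177). In mature cells Mnt differed by -0.55 ± 0.214 with an adjusted p of 0.0695 by edgeR, as TSLP minus IL-3. It passed without IL-3 mature 1 (-0.76, 0.0228) or without TSLP mature 1 (-0.72, 0.0271).

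Mxd3, at 13:55325168-55329823 on the minus strand, went against the other repressors. It stood at 21.7, 24.8 and 31.0 CPM in the immature and 1.42, 0.725 and 0.897 CPM in the mature libraries with IL-3, and at 22.2, 29.6 and 31.9 CPM (immature) and 3.76, 0.848 and 1.84 CPM (mature) with TSLP. All 6 immature libraries were above all 6 mature ones with no value between 3.76 and 21.7 CPM. The counts behind these levels were 226 (immature) and 8 (mature) with IL-3, a ratio of 25.6 whose exact 95% counting interval starts at 12.8, and 244 and 23 with TSLP, a ratio of 12.6 (8.21 to 20.3). The fitted log2 fold changes were 4.61 ± 0.422 with IL-3 (adjusted p = 2.62e-07 by edgeR) and 3.65 ± 0.347 with TSLP (adjusted p = 1.33e-06), and both were called under every alternative. TSLP mature 1 had 14 of the 23 TSLP mature counts, and without it the TSLP difference was 4.44. Between cytokines Mxd3 was 0.10 apart on the log2 scale in immature cells (adjusted p = 0.849) and 1.06 ± 0.584 in mature cells (adjusted p = 0.202 by edgeR).

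Mxd3 shares exon sequence with Prelid1, a mitochondrial lipid transfer gene on the opposite strand, and the sources used here do not say whether counting used strand. Prelid1 had means of 195 CPM in immature and 139 CPM in mature cells with IL-3, and 279 and 293 CPM with TSLP. With IL-3 the immature minus mature difference of Prelid1 was 0.48 ± 0.226 on the log2 scale (adjusted p = 0.0913 by edgeR), and with TSLP it was -0.07 ± 0.223 (adjusted p = 0.852). The part of Prelid1 reads in the Mxd3 counts was not tested. Mxd4 and Mxi1 overlap the unnamed models Gm42846 and Gm10197 in the same way. At most 0.916% of the 50-base stretches of any member occurred in another gene.

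**Figure D2:**
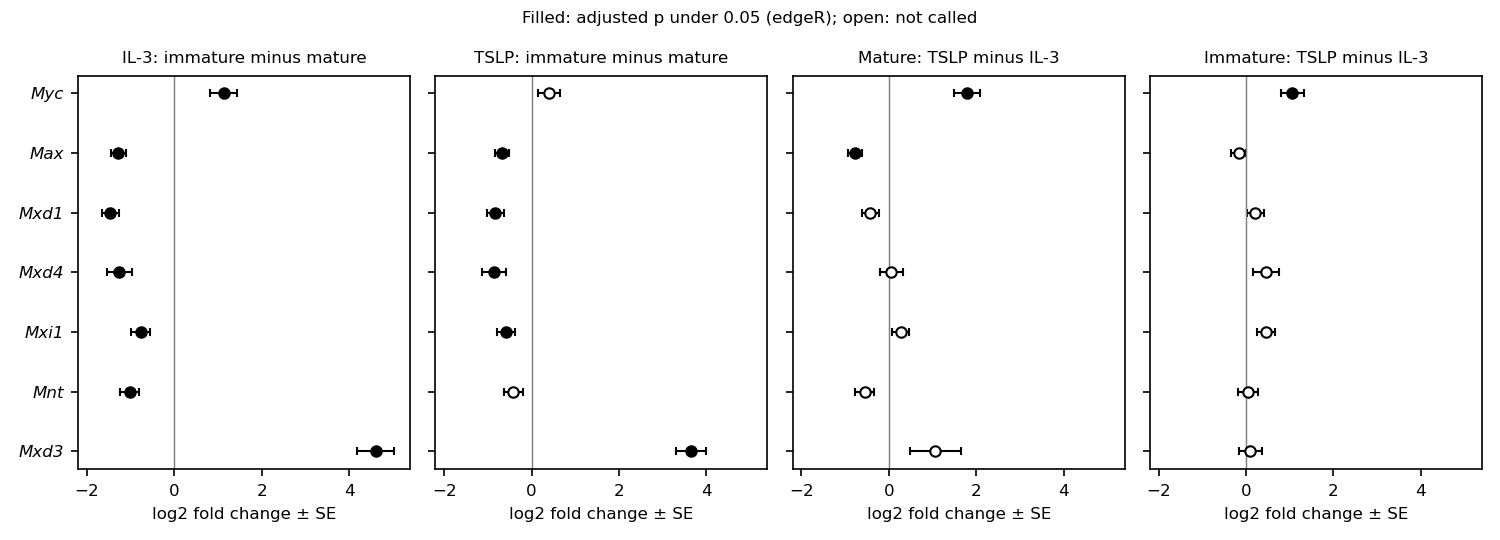
Log2 fold change of the 7 tested members (x axis; 1 line per member) in the 2 maturation and the 2 cytokine comparisons, with bars for the standard error and filled points where the adjusted p is under 0.05. Mxd3 is the only tested member far above 0 in both maturation comparisons, at 4.61 and 3.65, and Myc is the only one called above 0 in both cytokine comparisons.

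The maturation difference of each member was next compared between cytokines by the interaction term. It was called for 0 of 7 members, against 4.19% of all genes, and DESeq2 also called 0. Max (0.61 ± 0.232) and Mxd1 (0.63 ± 0.274) had an unadjusted p under 0.05, with adjusted p of 0.161 and 0.225 by edgeR. For Max, Mxd1, Mxd4, Mxi1 and Mnt the immature minus mature difference was less negative with TSLP than with IL-3, by 0.18 to 0.63, and for Myc and Mxd3 it was less positive, by -0.73 and -0.96. All 7 members thus had the smaller maturation difference in TSLP cultures, without any of them passing the test of that difference. The share of all genes with a smaller difference in TSLP cultures is not given here, but the share called was 46.2% with IL-3 and 25.1% with TSLP. The 2 maturation comparisons share no library, but they come from 1 fit with a shared estimate of the spread.

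Levels of different members were compared per length, as CPM per kilobase of the longest coding transcript. Mxd1 was the most abundant member in all 4 groups, at 35.0, 96.7, 40.7 and 72.4 CPM per kilobase (immature and mature with IL-3, then immature and mature with TSLP). Max came next, at 29.6, 71.7, 26.4 and 41.9 CPM per kilobase in this order of groups. In IL-3 immature cells the SDs of Mxd1 (5.69) and Max (0.918) bridge their difference, so that their order is not beyond the spread there. Mxd3 was the member after Max in both immature groups (19.5 and 21.0 CPM per kilobase) and the lowest of the 7 tested members in both mature groups (0.764 and 1.62). Myc stood at 5.96, 2.75, 12.7 and 9.64 CPM per kilobase, Mnt at 6.59, 13.4, 6.82 and 9.11, and Mxi1 at 4.81, 8.34, 6.71 and 10.1. Myc was thus below Mnt and Mxi1 in IL-3 mature cells and above both in TSLP immature cells. In TSLP mature cells these 3 did not differ beyond their SDs of 2.43, 1.88 and 0.50 CPM per kilobase. Mxd4 stood at 2.63 to 6.34, and Mycn and Mycl at 0.473 or less. The order depends on the transcript taken for length. With the shortest coding transcript of each gene Myc came second to Mxd1 in TSLP immature cells, at 78.2 ± 6.41 against 68.1 ± 8.92 CPM per kilobase for Max, and Mxd3 was below Mnt, Myc and Mxi1 in both immature groups.

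The balance of activator and antagonists was described as Myc transcripts per 100 transcripts of Mxd1, Mxd3, Mxd4, Mxi1 and Mnt, all per length. It was 5.60, 9.91 and 9.97 in the immature and 2.62, 2.51 and 1.55 in the mature libraries with IL-3, and 17.2, 14.9 and 16.6 (immature) and 14.9, 7.16 and 8.20 (mature) with TSLP. The TSLP immature libraries were the highest, level at their lowest with TSLP mature 1, and the IL-3 mature libraries the lowest without overlap. TSLP mature and IL-3 immature libraries, with means of 10.1 ± 4.18 and 8.49 ± 2.51, overlapped. Among the antagonists, Mxd1 made up 51.0% of the sum in IL-3 immature and 51.7% in TSLP immature cells and 77.2% and 72.3% in the mature cells. Mxd3 made up 28.3% and 26.5% in immature and 0.63% and 1.76% in mature cells. These shares depend on the transcript taken for length: with the shortest coding transcript of each gene Mxd3 made up 3.91%, 0.0632%, 3.62% and 0.187% in the order of groups above, and Mxd1 78.5%, 86.4%, 78.5% and 83.9%.

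**Figure D3:**
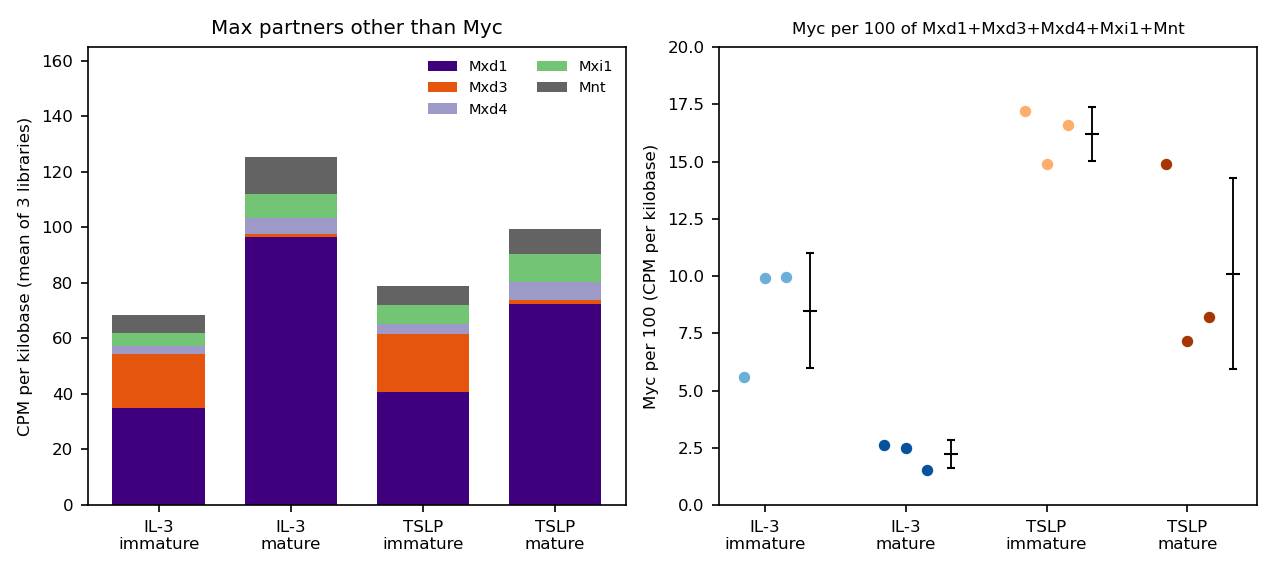
Left, stacked mean levels of Mxd1, Mxd3, Mxd4, Mxi1 and Mnt in CPM per kilobase of the longest coding transcript in the 4 groups; right, Myc per 100 transcripts of the 5 antagonists in each library, with the mean and SD of 3. IL-3 mature libraries lie at 1.55 to 2.62 on the right and all other libraries at 5.60 or above.

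Genes known to be raised by Myc were on the whole higher in immature cells of both cultures. The list holds 38 genes of ribosome production, nucleotide and folate metabolism and growth, of which 37 were tested. With IL-3, 32 were called higher in immature cells and 1 lower (median log2 fold change 1.54 against -0.06 over all genes tested), beside 22.1% and 24.1% of all genes. With TSLP 19 were called higher and 1 lower (0.81 against -0.03), beside 12.2% and 12.9% of all genes. Shmt2, an enzyme of mitochondrial folate metabolism, fell from 25.9 ± 5.28 to 1.05 ± 0.32 CPM with IL-3 (24.3-fold, adjusted p = 4.98e-08 by edgeR) and from 21.7 ± 3.31 to 5.57 ± 1.65 CPM with TSLP (3.87-fold, 4.94e-05). Tfrc, the transferrin receptor, fell from 52.5 ± 2.02 to 2.96 ± 0.16 CPM with IL-3 (17.6-fold, 1.3e-09) and from 56.0 ± 2.76 to 17.6 ± 2.86 CPM with TSLP (3.17-fold, 2.98e-06). Nop58, a core protein of small nucleolar ribonucleoproteins, was 5.85-fold and 2.53-fold higher in immature cells (2.58e-06 and 0.00184). The gene called the other way under both cytokines was Ccnd2, cyclin D2, which was 11.1-fold higher in mature cells with IL-3 (304 ± 36.7 against 27.6 ± 5.56 CPM, 2.03e-09) and 4.43-fold with TSLP (376 ± 25.9 against 84.7 ± 9.05 CPM, 5.49e-07).

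Between cytokines, 16 of the 37 targets tested were called in mature cells, where 24.3% of all genes were, and 3 of 37 in immature cells, where 13.3% were. In mature cells 15 of 37 were called higher with TSLP than with IL-3 and 1 lower (median 0.59 against 0.09 over all genes). Among the higher were Tfrc (5.91-fold, adjusted p = 9.44e-06 by edgeR), Shmt2 (5.27-fold, 0.00147) and Cad, which starts pyrimidine synthesis (3.65-fold, 0.000551). Nucleolin (Ncl) was the gene called lower, by 1.48-fold (0.0219), a call lost in 5 of 21 alternatives, 3 of them without IL-3 mature 1, IL-3 mature 2 or TSLP mature 3, with adjusted p up to 0.0973. In immature cells, where Myc was also higher with TSLP, 2 of 37 were called higher and 1 lower (median -0.15 against 0.04). Ccnd2 was 3.08-fold higher with TSLP there (5.96e-05), Cad 1.75-fold higher (0.0411, lost in 11 of 21 alternatives, at up to 0.183, and kept among the fits that left out 1 library only without IL-3 immature 3, TSLP mature 1 or TSLP mature 3), and Ncl 1.67-fold lower (0.00795, lost without TSLP immature 3, at 0.0514). The number called in immature cells ran from 1 without TSLP immature 3 to 10 without TSLP mature 1, and it was 7 without IL-3 immature 3 and 5 without TSLP mature 3.

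Genes known to be held down by Myc moved the other way. Of 7 listed, 5 were tested, and all 5 were called lower in immature than in mature cells with IL-3 (median -1.77), beside 24.1% of all genes. With TSLP all 5 were lower, at -0.51 or below (median -0.69), and 4 of them were called, beside 12.9% of all genes. Cdkn1a, the p21 inhibitor of cyclin-dependent kinases, went from 94.7 ± 17.3 CPM in immature to 396 ± 45.8 CPM in mature cells with IL-3 (4.17-fold, adjusted p = 9.4e-07 by edgeR). In TSLP cells it went from 109 ± 19.7 to 175 ± 35.1 CPM (1.61-fold, 0.0216), a call lost in 11 of 21 alternatives, at up to 0.164. Leaving out 1 library, it was kept only without TSLP immature 2, TSLP mature 3, IL-3 mature 1 or IL-3 immature 1. Ndrg1, a differentiation and stress gene, was 3.41-fold and 2.07-fold higher in mature cells (5.1e-07 and 0.00022), and Cdkn1b, the p27 inhibitor, 2.29-fold and 1.58-fold (7.49e-05, and 0.0152). The Cdkn1b call with TSLP was lost in 6 of 21 alternatives, at up to 0.0952, among them the fits without any 1 of the TSLP immature libraries, TSLP mature 2 or TSLP mature 3. In mature cells 3 of 5 were called lower with TSLP than with IL-3 (median -0.90), beside 11.9% of all genes. They were Cdkn1a, lower by 2.25-fold (0.00125), Cdkn1b by 1.63-fold (0.0125) and Gadd45a, a gene of growth arrest, by 2.42-fold (0.00462). In immature cells 1 of 5 was called, beside 13.3% of all genes. It was Ndrg1, 2.15-fold higher with TSLP (0.000692). The TSLP maturation count of 4 fell to 2 without TSLP immature 1, TSLP immature 3 or TSLP mature 2.

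Cofactors and regulators of the network were mixed. Of 29 listed, 28 were tested. In immature cells 12 were called higher and 5 lower with IL-3 (median 0.21), and 7 were called higher and 1 lower with TSLP (median 0.11). The 17 of 28 and 8 of 28 called stand beside 46.2% and 25.1% of all genes. Cip2a, which protects the Myc protein from dephosphorylation, had 34.9 ± 2.28 CPM in immature and 0.988 ± 0.505 CPM in mature cells with IL-3 (32.8-fold, adjusted p = 3.74e-09 by edgeR), and 26.4 ± 2.59 and 1.90 ± 0.562 CPM in TSLP cells (13.6-fold, 1.08e-07). Kat2a, the acetyltransferase of Myc coactivator complexes, was higher in immature cells by 5.60-fold with IL-3 (1.48e-05) and 1.89-fold with TSLP (0.011; 0.107 when libraries were thinned to the smallest total). Ruvbl1, a chromatin remodelling ATPase, was higher in immature cells by 3.59-fold and 2.04-fold (2.64e-05 and 0.00467). Txnip, a glucose-responsive gene of the Mlx branch of the network, was higher in mature cells by 3.04-fold with IL-3 (264 ± 25.0 against 804 ± 53.6 CPM, 9.28e-07) and 2.38-fold with TSLP (478 ± 33.6 against 1135 ± 62.1 CPM, 3.56e-05). Its relative Arrdc4 was 2.16-fold higher in IL-3 mature cells (0.00706; 0.0566 without IL-3 immature 2). Fbxw7, the ubiquitin ligase adaptor for Myc, was 1.81-fold higher there (0.026), a call lost in 6 of 21 alternatives, at up to 0.142, 4 of them without IL-3 immature 1, IL-3 immature 3, IL-3 mature 2 or IL-3 mature 3.

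All 15 cell cycle genes listed were called higher in immature cells under both cytokines, as was Mxd3, beside 22.1% of all genes with IL-3 and 12.2% with TSLP. The median log2 fold change of the list was 5.98 with IL-3 and 3.64 with TSLP. Top2a, the topoisomerase of dividing cells, went from 538 ± 30.1 to 6.52 ± 0.646 CPM with IL-3 (81.8-fold, adjusted p = 1.39e-11 by edgeR) and from 327 ± 19.1 to 19.0 ± 2.05 CPM with TSLP (17.1-fold, 1.37e-09). Bub1, a spindle checkpoint kinase, had 427 counts over the immature and 0 over the mature libraries with IL-3, at least 129-fold higher against a floor of 3 counts over the group, and was 15.1-fold higher in TSLP immature cells (counting interval 9.76 to 24.4). In mature cells all 15 were higher with TSLP than with IL-3, at 0.74 or above (median 1.89 against 0.09 over all genes). Of these 13 were called, beside 12.4% of all genes called higher. In immature cells 0 were called higher and 3 lower (median -0.37 against 0.04), beside 7.38% and 5.9% of all genes. The 3 fell to 1 without IL-3 immature 1, IL-3 immature 2, TSLP immature 1, TSLP immature 2 or TSLP immature 3. These genes moved with Mxd3 in both maturation comparisons. They moved with Myc in that of the IL-3 cultures and, between cytokines, in mature cells, where Myc was 3.46-fold higher with TSLP. In immature cells Myc was also called higher with TSLP, whereas 0 of these genes were. Their part in the results for these members was not tested.

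**Figure D4:**
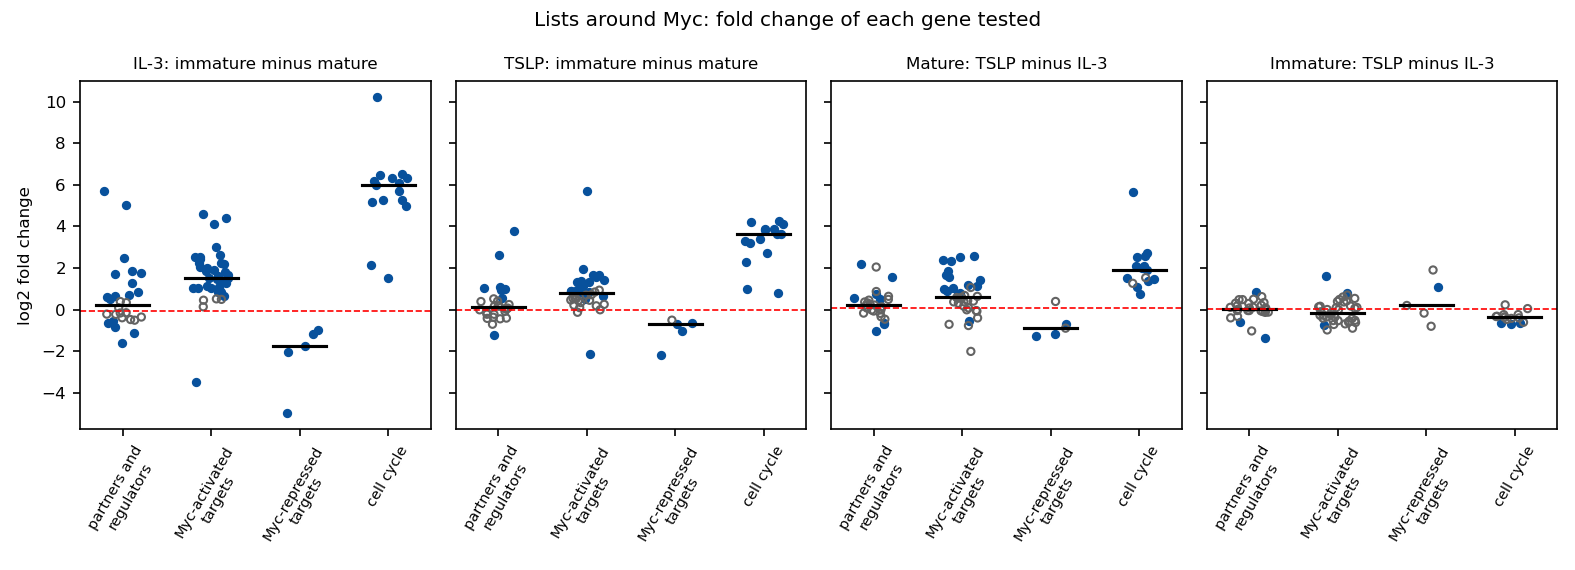
Log2 fold change (y axis) of each tested gene of the 4 lists (x axis) in the 2 maturation and 2 cytokine comparisons; filled blue points are called, open grey points are not, the black line is the list median and the red dashed line the median of all genes tested. The cell cycle list sits highest in both maturation comparisons, at medians of 5.98 and 3.64.

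The genes closest in pattern to 4 of the members were found by the root mean square difference of centred log2 CPM over the 12 libraries, among 7536 tested genes averaging 10 CPM or more. Closest to Myc were Marcksl1, a membrane-actin linker (0.244), Nsmce1 (0.355) and Mri1 (0.366). Marcksl1 had group means of 18.5, 8.81, 35.3 and 23.8 CPM in the order of groups above, beside 13.9, 6.43, 29.8 and 22.5 CPM for Myc. Closest to Mxd1 were the RNA-binding protein gene Zfp36l2 (0.119), Ip6k1 (0.130) and the nuclear RNA Neat1 (0.135). Closest to Mxd4 were Plcg1 (0.169), Otud3 (0.193) and Nedd4l (0.209). Closest to Mxd3 were the basophil protease Prss34 (0.360) and the mitotic genes Cenpa (0.379) and Cdca8 (0.405). Mxd3 varied most, with an SD of 2.0 on the log2 scale against 0.902 for Myc, 0.65 for Mxd1 and 0.645 for Mxd4. The difference is not scaled by that spread, so its size cannot be compared between members. These are descriptions over libraries that share groups, with no test.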

How the data were processed

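Polyadenylated RNA of sorted BMBAs was sequenced on an Ion Proton after oligo(dT) capture and whole-transcriptome amplification. The authors deposited raw counts per gene symbol in 1 table of 12 columns. Per the methods of the study, reads were trimmed with Cutadapt, and Bowtie2 placed them on the reference RNA of GRCm38 for counting per gene, while the submitters' processing notes name the builds GRCm39 and mm10. Handling of strand and of reads shared between genes is not given in the sources used here. An unnamed row, 50% of each column and equal to the sum of the others, was left out.

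Genes were kept by filterByExpr (minimum count 10, minimum total 15), which left 10861 genes with 99.5% to 99.7% of the counts. A single edgeR 4.0.16 quasi-likelihood fit (R 4.3.3, TMM scaling) held 1 mean for each of the 4 groups and no block, with a common biological coefficient of variation of 20.4%. It gave immature minus mature within each cytokine, TSLP minus IL-3 within each stage, and their interaction, with Benjamini-Hochberg adjustment over all genes tested. CPM are counts scaled by effective library size, given as mean ± SD (n = 3). Fold changes carry standard errors derived from the test, as the absolute log2 fold change over the square root of F. The 95% interval of a fold change took a normal distribution and is therefore narrower than the F test implies. A group at 0 counts was set to a floor of 3 counts. The fit was tested on simulated data.

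Gene positions and lengths were taken from the GRCm38 annotation and promoters from RefSeq GRCm38.p6. Beside the members, up to 3 called genes in each direction were named from each list in the IL-3 maturation comparison, and up to 2 in each cytokine comparison, by fold change among those averaging 10 CPM or more, and these were followed in the other comparisons. The members and lists were chosen with earlier results of these data known. Alternatives were DESeq2 size factors and DESeq2 1.42.0, TMM on uncalled genes, no filter, a filter of 10 CPM in 3 libraries, a fit of only the groups compared, removal of Rn45s, thinning to 1720065 counts, a replicate block, and leaving out each library. Results of some list genes are not reported here.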

Additional observations from a re-analysis of the deposited data

Results flagged for a closer look

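No member of the network was singled out by the test of a different maturation effect between cytokines. Of the list genes named, 9 were, each by the interaction term of edgeR (TSLP minus IL-3 difference of immature minus mature log2 levels). The difference was smaller with TSLP for Tfrc (-2.47, adjusted p = 0.000177), Top2a (-2.26, 0.000143), Shmt2 (-2.65, 0.00626), Rrm2 (-3.22, 0.0101), Ruvbl2 (-1.35, 0.0452) and Kat2a (-1.56, 0.0463). The Shmt2 call was lost when libraries were thinned to the smallest total (0.0573). Rrm2 had 0, 10 and 0 counts in the IL-3 mature libraries, and leaving out 1 library its value ran from -8.18 to -2.6. The calls of Ruvbl2 and Kat2a were lost in 13 and 15 of 20 alternatives, at adjusted p up to 0.161 and 0.131; leaving out 1 library, Ruvbl2 was kept only without TSLP mature 2 or TSLP mature 3 and Kat2a only without IL-3 immature 2. Bub1 (-6.34, 0.00251) had 0 counts in IL-3 mature cells, so its size depends on the prior count of the fit. For genes higher in mature cells the difference was less negative with TSLP, at 1.32 for Ccnd2 (0.00877) and 1.37 for Cdkn1a (0.0132; 0.0512 without TSLP immature 2).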

How the results depend on the processing

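Of 15 member calls in the comparisons, 11 held under every alternative, and 0 reversed. Of 727 member values under alternatives, 677 kept direction and side of the threshold, 31 were weaker, 3 stronger and 16 reversed, all of the last for uncalled values near 0: Mnt in immature cells between cytokines was -0.0046 with DESeq2 size factors and -0.06 when thinned (leaving out 1 library, -0.07 to 0.14), Mxd4 in mature cells -0.10 when thinned (-0.08 to 0.12) and Mxd3 in immature cells -0.02 to 0.21.

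Counts moved as follows, and the causes were not tested. Members called in TSLP maturation were 3 when thinned and 2 to 5 leaving out 1 library, and members called between cytokines in immature cells 0 to 1. With only the groups compared, partners in mature cells were 5, cell cycle genes 6 in mature and 6 in immature cells, Myc-activated targets in immature cells 9 and repressed targets 2. Activated targets in immature cells were 7 with no filter, 5 with 10 CPM and 1 to 10 leaving out 1 library, and repressed targets 2 with DESeq2, no filter or thinning. In the interaction, partners were 0 with TMM on uncalled genes, without Rn45s or thinned, and 1 with DESeq2; activated targets were 8 with no filter, and repressed targets 2 with DESeq2 or no filter. Leaving out 1 library gave 2 to 4 repressed targets in TSLP maturation, 4 to 8 partners in mature cells, 1 to 2 repressed targets and 1 to 4 cell cycle genes in immature cells, and 0 to 1 partners and 0 to 2 repressed targets in the interaction. With shortest transcripts Myc per 100 antagonists was 1.37 in IL-3 mature and 13.5 in TSLP immature cells.

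All genes called between cytokines in mature cells were 2634, but 1714 with only those groups fitted and 1658 without IL-3 mature 2. The other counts over all genes ran from 1774 without TSLP immature 1 (TSLP maturation, 2731), from 588 without TSLP immature 3 to 2243 without TSLP mature 1 (cytokines in immature cells, 1443) and from 240 without IL-3 mature 2 to 723 without TSLP mature 1 (interaction, 455). The filter of 10 CPM moved the median of all genes by 0.11 in both maturation comparisons.

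No source says what the replicate numbers share, so they were not taken as pairs in the main fit. Of 18 same-numbered pairs 7 had correlated deviations over 0.1 (-0.0769 to 0.388). Pairs with different numbers ran from -0.305 to 0.272. As a hint of some shared variation, 8 of 12 libraries correlated best with their own number. With a replicate block the members called stayed at 7, 5, 2, 1 and 0, and Myc-activated and repressed targets in immature cells were 6 and 2. All genes called rose with the block in every comparison. They were 5251 in IL-3 maturation (5020 without the block) and 3067 in TSLP maturation (2731). Between cytokines they were 2853 in mature cells (2634) and 1893 in immature cells (1443), and they were 556 in the interaction (455). Depth limits Mycn, Mycl and mature Mxd3, with at most 14 counts in a library.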

Other observations

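Of 28 partners of the network tested, 5 were called higher and 3 lower with TSLP than with IL-3 in mature cells, where 24.3% of all genes were called. Kat2a was 4.55-fold higher (10.6 ± 1.29 against 2.27 ± 0.567 CPM, adjusted p = 0.000527 by edgeR) and Ruvbl2, the partner ATPase of Ruvbl1, 2.94-fold higher (0.00123). The deacetylase gene Hdac1 was 1.55-fold lower (0.0122). In immature cells, where 13.3% of all genes were called, 1 of 28 was called higher with TSLP, Txnip by 1.81-fold (0.00309), and 2 were called lower, among them Hdac1 by 1.49-fold (0.0266). The Hdac1 call in immature cells was lost in 5 of 21 alternatives, at up to 0.125, among them the fits without IL-3 immature 1, IL-3 immature 2, TSLP immature 1 or TSLP immature 3. The 8 partners called in mature cells fell to 4 without IL-3 mature 3, and to 5 without IL-3 immature 2, IL-3 immature 3, IL-3 mature 2, TSLP mature 3 or any 1 of the TSLP immature libraries.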
